A study of Bos taurus with 18 samples.

Results

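NFKB1 and NFKB2, the genes of the NF-kB precursor subunits p105 and p100, and MAP3K8, the gene of the kinase TPL2, were measured in bovine endometrial cells. They were chosen as the NF-kB subunit genes and the upstream kinase that the study's lists of genes changed by rbCAPG pair with an Ensembl identifier, which gave 3 genes of the 36075 in the count table. The identifiers were ENSBTAG00000020270 for NFKB1, ENSBTAG00000006017 for NFKB2 and ENSBTAG00000011600 for MAP3K8, and all 3 were among the 17931 genes left after the filter on low counts. NFKB1 stood in the list for epithelial cells, MAP3K8 in the list for stromal cells and NFKB2 in both. The direction of their change with rbCAPG in those cells, and their calls there, are therefore a description and not independent evidence. Genes such as RELA, RELB and IKBKB had no identifier in the lists and were not analysed here.

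NF-kB is a family of dimeric transcription factors that inhibitor proteins hold in the cytoplasm until a receptor signal releases them. NFKB1 encodes p105, which is processed to p50 and otherwise acts as an inhibitor, and NFKB2 encodes p100, which is processed to p52 in the non-canonical branch that CD40 and related receptors use. MAP3K8 is a kinase that p105 binds and keeps inactive, and on release it drives the MEK and ERK pathway in inflammatory signalling. NFKB1 and NFKB2 are themselves known NF-kB target genes.

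Bovine endometrial epithelial cells (bEECs) and stromal cells (bESCs) were grown on opposite faces of a porous membrane in a 3D endometrium-on-a-chip device, with the bEECs in the chamber under flow and the bESCs in the static chamber. The medium carried vehicle control (VC, PBS) or a recombinant bovine protein that the conceptus secretes, CAPG (rbCAPG) or PDI (rbPDI), each at 1 µg/mL, for 24 h. Each cell type and treatment was represented by 3 samples, 18 in all from 9 devices, and the replicate number was taken as the animal. The cells were primary cultures from 3 abattoir uterine tracts in the late-luteal stage, enriched by differential trypsinization and judged by light microscopy, and both cell types of a device came from the same animal.

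Total counts ran from 10072851 in rbPDI bESC replicate 1 to 44253149. Levels are given as CPM, counts per 1000000 counts after TMM scaling, a correction for library composition whose factors ran from 0.703 in rbCAPG bEEC replicate 1 to 1.22. The cell type markers below came from the study's rbCAPG lists, so their change with rbCAPG is not independent evidence of other cells. With VC, 6 of 7 epithelial markers were higher in bEECs and 6 of 6 stromal markers were higher in bESCs without overlap. GJB6, an epithelial marker, overlapped. Summed stromal marker levels in bEECs were 7.22 to 15.0 CPM with VC, 18.5 to 49.5 CPM with rbCAPG and 13.6 to 35.4 CPM with rbPDI, against 243 to 279 CPM in bESCs with VC, and no stromal marker was at 0 in a library. Summed macrophage and monocyte markers (CD14, AIF1 and CXCR4) in bEECs were 22.1 to 38.9 CPM with VC, 83.2 to 136 CPM with rbCAPG and 81.0 to 150 CPM with rbPDI. Summed endothelial markers in bEECs were 757 to 1287 CPM with VC, 3581 to 4226 CPM with rbCAPG and 3035 to 6584 CPM with rbPDI. Over the bEEC libraries ESM1 alone ran from 754 to 6579 CPM, while TEK (0.0302 to 0.888 CPM) and SELP (1.47 to 36.8 CPM) added little. With VC, TEK and SELP were higher in bESCs than in bEECs without overlap, and ESM1 was higher in bEECs. Summed epithelial markers in bEECs also moved, from 701 to 1538 CPM with VC to 3040 to 4351 CPM with rbCAPG and 2873 to 4400 CPM with rbPDI. That sum was carried mostly by AGR2 (203 to 3356 CPM over the bEEC libraries), while OCLN and RBM47 had log2 fold changes of 0.15 to 0.17. For MUC1, CDH26, FERMT1 and GJB6 they were 1.13, 1.19, 1.48 and 2.54 with rbCAPG. With rbPDI they were 1.16, 1.06, 1.56 and 2.97. With rbCAPG 0 of 7 epithelial markers were called, where 0.513% of all tested genes were called higher. With rbPDI 1 of 7 was called, FERMT1, where 0.770% of all tested genes were. In bulk samples, fewer cells of a type and less RNA per cell cannot be told apart.

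In bEECs, NFKB1, NFKB2 and MAP3K8 were all higher with either protein than with VC. The subunit genes were between 2 and 3 times their VC level, and MAP3K8, which was under 1 CPM in every VC library, was between 4 and 6 times its VC level. All 3 genes passed the test with both proteins, and no treated library overlapped a VC library.

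**Figure D1:**
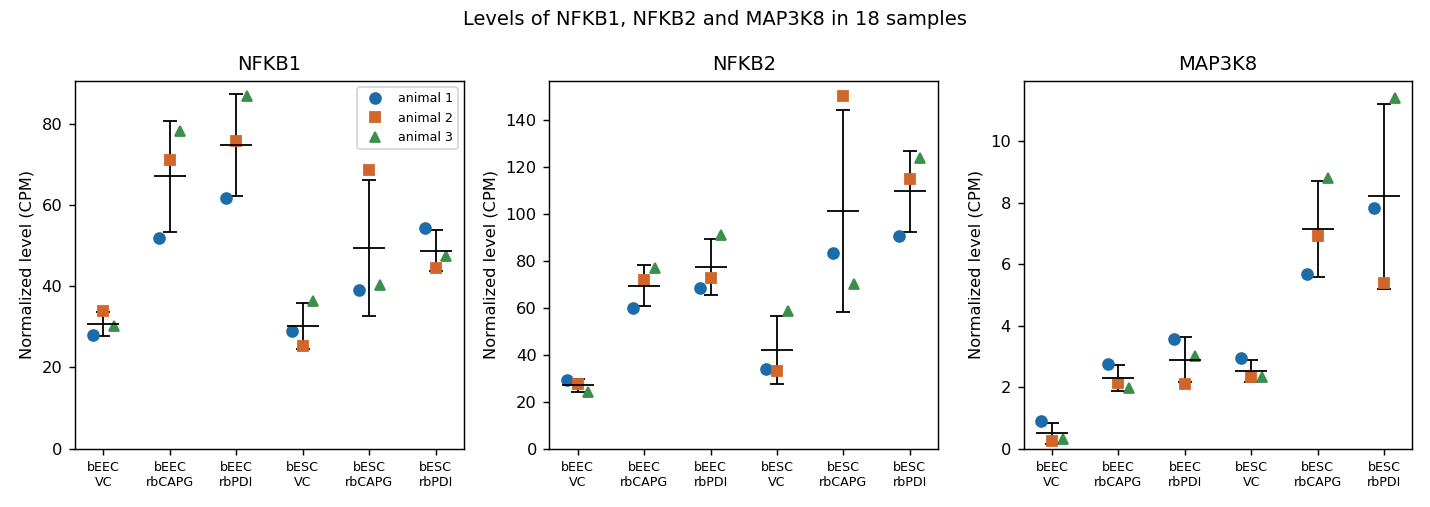
Level of each gene (CPM after TMM scaling, linear axis from 0) in every sample, by cell type and treatment. Symbols mark the animal, horizontal lines the mean of 3 samples and error bars the SD. Every sample with rbCAPG or rbPDI lies above the 3 VC samples of its cell type, and MAP3K8 in treated bEECs, at 1.97 to 3.58 CPM, lies about the level of VC bESCs, at 2.33 to 2.95 CPM.

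NFKB1 in bEECs with VC was at 28.0, 33.8 and 30.3 CPM in replicates 1 to 3. With rbCAPG it was at 51.8, 71.1 and 78.1 CPM, and with rbPDI at 61.8, 75.6 and 86.9 CPM. The lowest treated library was that of replicate 1 with either protein, and after TMM scaling it was still well above the highest VC library. Before TMM scaling, rbCAPG replicate 1 was at 36.4 CPM (exact 95% binomial interval 34.4 to 38.5). The highest VC library was then replicate 1, at 32.8 CPM (30.7 to 35.0), so these intervals for counting error overlapped. The means were 30.7 ± 2.93 CPM with VC, 67.0 ± 13.6 CPM with rbCAPG and 74.8 ± 12.6 CPM with rbPDI (SD, n = 3). The log2 fold change was 1.13 (SE 0.24, 95% interval 0.62 to 1.63, adjusted p = 0.0449) with rbCAPG and 1.29 (SE 0.24, 0.78 to 1.79, adjusted p = 0.0119) with rbPDI, by edgeR's quasi-likelihood test with Benjamini-Hochberg adjustment over all tested genes. NFKB1 was higher in 3 of 3 animals with each protein.

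NFKB2 in bEECs with VC was at 29.3, 27.6 and 24.1 CPM. The level was 59.9, 71.7 and 76.9 CPM with rbCAPG and 68.6, 72.8 and 91.0 CPM with rbPDI. As for NFKB1, replicate 1 gave the lowest treated value, and within animals the rise was 2.04, 2.60 and 3.19 times with rbCAPG and 2.34, 2.64 and 3.78 times with rbPDI. The means were 27.0 ± 2.65, 69.5 ± 8.73 and 77.4 ± 11.9 CPM (SD, n = 3) with VC, rbCAPG and rbPDI. The log2 fold change by edgeR was 1.36 (SE 0.28, 95% interval 0.77 to 1.96, adjusted p = 0.0397) with rbCAPG and 1.52 (SE 0.28, 0.92 to 2.12, adjusted p = 0.0119) with rbPDI.

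MAP3K8 in bEECs with VC was at 0.906, 0.256 and 0.329 CPM, from deposited counts of 30.5, 8.5 and 11. With rbCAPG it was at 2.77, 2.15 and 1.97 CPM, and with rbPDI at 3.58, 2.12 and 3.01 CPM. Replicate 1 was the highest of the VC libraries and, after TMM scaling, also the highest of the libraries with either protein. Its fold changes of 3.06 and 3.95 were the lowest of the 3 animals. Before TMM scaling it was the highest with neither protein. The unscaled levels in replicates 1 to 3 were 1.95, 1.97 and 1.89 CPM with rbCAPG and 2.91, 1.91 and 3.21 CPM with rbPDI. The means were 0.497 ± 0.356, 2.29 ± 0.422 and 2.90 ± 0.737 CPM (SD, n = 3). The log2 fold change by edgeR was 2.19 (SE 0.42, 95% interval 1.30 to 3.09, adjusted p = 0.0217) with rbCAPG and 2.53 (SE 0.42, 1.63 to 3.43, adjusted p = 0.00488) with rbPDI. Also before TMM scaling, the VC libraries were at 1.06 CPM (exact 95% binomial interval 0.718 to 1.52), 0.235 (0.102 to 0.464) and 0.289 (0.144 to 0.516). The lowest treated library was at 1.89 (1.46 to 2.40). These intervals cover counting error only.

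With rbCAPG, 3 of 3 genes were called, where 0.513% of all tested genes were called higher, and 3 of 3 did not overlap with VC, where 8.72% of all tested genes did not. With rbPDI, 3 of 3 were called against 0.770% of all genes and 3 of 3 did not overlap against 8.06%. NFKB1 and NFKB2 were chosen from the study's epithelial rbCAPG list, so their rbCAPG counts do not show an excess over all genes. Both proteins were compared with the same VC samples, so the pairs of values are not independent of each other. Median log2 fold changes over all tested genes were 0.02 with rbCAPG and -0.01 with rbPDI.

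The rbCAPG calls lay near the threshold. Leaving out any 1 of the 6 bEEC libraries compared gave adjusted p-values by edgeR of 0.0334 to 0.297 for NFKB1, 0.0584 to 0.243 for NFKB2 and 0.00317 to 0.184 for MAP3K8. NFKB1 kept its call only without rbCAPG replicate 1 (log2 fold change 1.28), NFKB2 kept it in none of these fits, and MAP3K8 kept it only without VC replicate 1 (log2 fold change 2.95, with rbPDI 3.29). With rbPDI, the call of NFKB1 was lost without VC replicate 1 (1.22), VC replicate 3 (1.28) or rbPDI replicate 3 (1.17), that of NFKB2 without any one of the VC replicates (1.44 to 1.58) or without rbPDI replicate 3 (1.39), and that of MAP3K8 without VC replicate 3 (2.30, adjusted p = 0.054). Scaled by library size alone, an alternative chosen after seeing the data, the treated bEEC libraries were again all above the VC libraries (NFKB1 at 36.4 CPM or more with rbCAPG against 32.8 CPM or less), but 0 of 3 genes were called with rbCAPG (adjusted p = 0.131 to 0.44) and 1 of 3, MAP3K8, with rbPDI (adjusted p = 0.0189). That scaling moved the median over all genes with rbCAPG by -0.20, and relative to the median the log2 fold changes were 1.14 for NFKB1, 1.34 for NFKB2 and 2.06 for MAP3K8.

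The summed macrophage, monocyte and endothelial markers given above were higher in every treated bEEC library than with VC. The stromal sums were so with rbCAPG, but with rbPDI they overlapped those with VC. With rbCAPG, 0 of 6 stromal, 0 of 3 macrophage or monocyte and 0 of 3 endothelial markers were called, where 0.513% of all genes were called higher. With rbPDI these were 0 of 6, 1 of 3 (CD14) and 1 of 3 (TEK), where 0.770% were. The part of other cells in these results was not tested. These markers were themselves chosen from the rbCAPG lists, so a change with rbCAPG was part of their selection. Beside the stromal markers stand the members' own levels in treated bEECs and treated bESCs, which were 51.8 to 86.9 and 39.0 to 68.7 CPM for NFKB1, 59.9 to 91.0 and 70.2 to 150.3 CPM for NFKB2, and 1.97 to 3.58 and 5.40 to 11.4 CPM for MAP3K8. The treated cell types overlapped for NFKB1 and NFKB2, and MAP3K8 was higher in the bESCs without overlap.

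In bESCs, all 3 genes were also at higher levels with either protein than with VC in every animal, but none passed the test. By edgeR, 0 of 3 genes were called with rbCAPG, where 0.0948% of all tested genes were called higher, and 0 of 3 with rbPDI, where 0.173% were. At an unadjusted p under 0.05, 3 of 3 genes passed with each protein, where 2.74% of all genes passed with rbCAPG and 5.3% with rbPDI. DESeq2's Wald test called NFKB2 and MAP3K8 with each protein and NFKB1 with neither, where it called 0.395% and 0.906% of all genes higher. The study's lists were also made with DESeq2 and a local fit, and its stromal list held NFKB2 and MAP3K8. Their rbCAPG calls by DESeq2 thus largely followed from the choice of genes and are not independent evidence. Treated and VC libraries did not overlap for 3 of 3 genes with rbCAPG, where 3.02% of all genes were higher without overlap, and for 3 of 3 with rbPDI, where 4.10% were. For NFKB2 and MAP3K8 with rbCAPG, the counts at an unadjusted p and those without overlap also followed largely from that choice. They do not show an excess over all genes. The rbPDI values used the same VC samples and are not independent of the rbCAPG values.

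NFKB1 in bESCs was at 28.9, 25.3 and 36.3 CPM with VC. The level with rbCAPG was 39.0, 68.7 and 40.3 CPM, and with rbPDI it was 54.3, 44.4 and 47.5 CPM. Replicate 2 with rbCAPG stood above the other libraries, and the lowest treated library was close to the highest VC library. The log2 fold change by edgeR was 0.71 (SE 0.24, 95% interval 0.21 to 1.21, adjusted p = 1) with rbCAPG and 0.69 (SE 0.24, 0.19 to 1.19, adjusted p = 0.561) with rbPDI. Without rbCAPG replicate 2 the former was 0.38.

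NFKB2 in bESCs was at 34.1, 33.1 and 58.8 CPM with VC, at 83.6, 150.3 and 70.2 CPM with rbCAPG and at 90.4, 115 and 124 CPM with rbPDI. Replicate 3 was the highest with VC and the lowest with rbCAPG, so that its fold change with rbCAPG was 1.19 against 2.45 and 4.54 in the other animals. With rbPDI the fold changes within animals were 2.65, 3.47 and 2.11. The log2 fold change by edgeR was 1.27 (SE 0.28, 95% interval 0.67 to 1.87, adjusted p = 0.185) with rbCAPG and 1.38 (SE 0.28, 0.79 to 1.98, adjusted p = 0.0713) with rbPDI. With the animal as a block, the rbPDI value was 1.38 with an adjusted p of 0.0218 and passed the test. DESeq2 gave adjusted p-values of 0.00417 and 0.000452. Without rbCAPG replicate 2 the rbCAPG value was 0.86.

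MAP3K8 in bESCs was at 2.95, 2.33 and 2.34 CPM with VC. The level was 5.69, 6.94 and 8.81 CPM with rbCAPG and 7.83, 5.40 and 11.4 CPM with rbPDI. The treated libraries lay well above the VC libraries, and replicate 3 was the highest with either protein. The log2 fold change by edgeR was 1.50 (SE 0.39, 95% interval 0.68 to 2.32, adjusted p = 0.443) with rbCAPG and 1.70 (SE 0.39, 0.87 to 2.52, adjusted p = 0.119) with rbPDI. With the animal as a block both passed the test, at 1.48 (adjusted p = 0.0359) and 1.64 (adjusted p = 0.0122). DESeq2 gave adjusted p-values of 0.00931 and 0.000599.

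**Figure D2:**
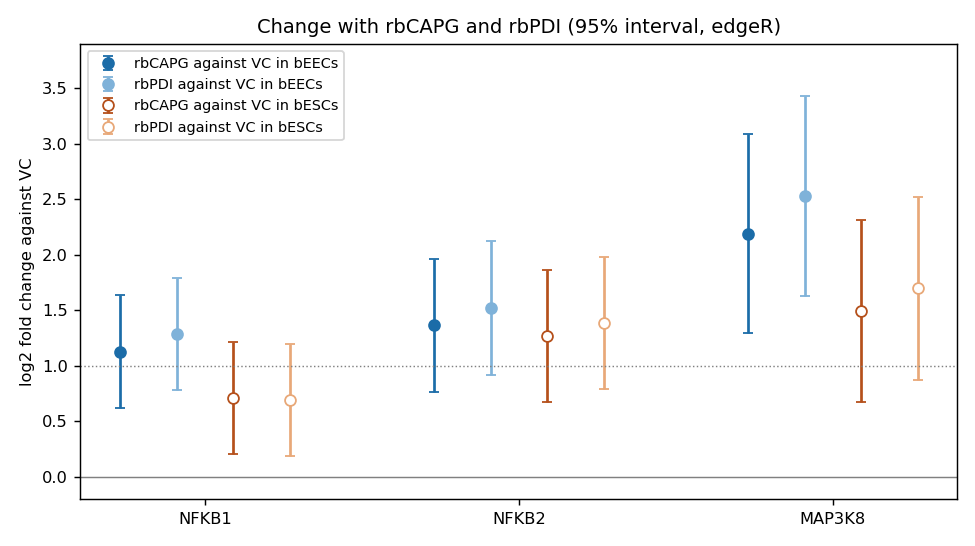
Log2 fold change against VC (vertical axis) of each gene with each protein in each cell type, with the 95% interval of edgeR's fit. Filled points passed the test (adjusted p under 0.05 and log2 fold change above 1, the dotted line) and open points did not. All 12 intervals lie above 0, and the 6 values in bEECs alone are filled.

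In the main edgeR test the calls fell in bEECs only, while DESeq2 and the animal block also called NFKB2 and MAP3K8 in bESCs. The change with a protein was not shown to differ between the cell types. The difference between the log2 fold change in bEECs and that in bESCs with rbCAPG was 0.42 (95% interval -0.29 to 1.13) for NFKB1, 0.09 (-0.74 to 0.93) for NFKB2 and 0.70 (-0.49 to 1.88) for MAP3K8. With rbPDI it was 0.60 (-0.11 to 1.30), 0.14 (-0.70 to 0.97) and 0.83 (-0.35 to 2.02). All 6 interaction terms had an adjusted p of 1 by edgeR, and DESeq2 called none. An unadjusted p under 0.05 was reached by 0 of 3 genes with either protein, where 3.42% of all genes reached it with rbCAPG and 4.72% with rbPDI, and 0.0669% and 0.0948% of all genes were called. Leaving out VC bEEC replicate 1, the library with the highest MAP3K8 level of its group, moved the MAP3K8 difference to 1.45 with rbCAPG (unadjusted p = 0.0113, adjusted p = 1 by edgeR) and to 1.61 with rbPDI (unadjusted p = 0.00602, adjusted p = 0.818). With the animal as a block the MAP3K8 difference was 0.81 with rbCAPG (adjusted p = 0.802 by edgeR) and 0.97 with rbPDI (unadjusted p = 0.0459, adjusted p = 0.509). The intervals are wide enough to hold a difference of more than 2-fold for NFKB1 and MAP3K8.

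The proteins were also compared with each other at the same dose and time. In bEECs the log2 fold change of rbPDI against rbCAPG was 0.16 (95% interval -0.34 to 0.66) for NFKB1, 0.16 (-0.43 to 0.74) for NFKB2 and 0.34 (-0.48 to 1.16) for MAP3K8. In bESCs it was -0.02 (-0.52 to 0.48), 0.11 (-0.47 to 0.70) and 0.20 (-0.60 to 1.00). The groups overlapped for every gene in both cell types, and all 6 adjusted p-values were 1 by edgeR. No gene of the table was called in bEECs (0%, with 103 of 17931 genes at an unadjusted p under 0.05) or in bESCs (0%, with 319 genes). None of the 3 genes had an unadjusted p under 0.05 in either cell type, and DESeq2 called 0 genes of the table in both. In bEECs NFKB1 and NFKB2 were higher with rbPDI than with rbCAPG in 3 of 3 animals, by 1.06 to 1.19 times and 1.02 to 1.18 times, and MAP3K8 was higher in 2 of 3.

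With VC alone, the genes differed in how they were distributed between the cell types. MAP3K8 was lower in bEECs than in bESCs, at 0.497 ± 0.356 against 2.54 ± 0.357 CPM (SD, n = 3), with a log2 fold change by edgeR of -2.34 (SE 0.42, adjusted p = 0.00027), that is 5.05 times higher in bESCs. NFKB2 was at 27.0 ± 2.65 against 42.0 ± 14.6 CPM, with no overlap and a log2 fold change of -0.64 (SE 0.28), which did not pass the test (adjusted p = 0.0697). NFKB1 was at 30.7 ± 2.93 against 30.2 ± 5.61 CPM, with overlapping values and a log2 fold change of 0.02 (95% interval -0.48 to 0.52, adjusted p = 0.945), whose sign changed with the scaling. Of the 3 genes, 1 was called lower in bEECs, where 18.9% of all genes were, and 2 did not overlap in that direction, where 28.3% of all genes did not. The MAP3K8 call held without any 1 of the 6 VC libraries, at -3.10 to -2.03, the former without bEEC VC replicate 1.

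Each device held both cell types of one animal, so the levels could be set side by side within a device. MAP3K8 was higher in the bESCs than in the bEECs of 9 of 9 devices, by 2.05 to 9.10 times. NFKB2 was higher in the bESCs of 8 of 9 devices, at 0.913 to 2.44 times the bEEC level. NFKB1 was higher in the bESCs of only 2 of 9 devices, at 0.515 to 1.20 times.

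From the highest mean to the lowest, NFKB1 ran from rbPDI bEECs through rbCAPG bEECs (74.8 and 67.0 CPM), rbCAPG bESCs and rbPDI bESCs (49.3 and 48.7 CPM) to VC bEECs and VC bESCs (30.7 and 30.2 CPM). Of these neighbours, only rbPDI bESCs and VC bEECs did not overlap. NFKB2 ran from rbPDI bESCs (109.7 CPM), rbCAPG bESCs (101 CPM), rbPDI bEECs (77.4 CPM) and rbCAPG bEECs (69.5 CPM) to VC bESCs (42.0 CPM) and VC bEECs (27.0 CPM), and the last 3 of these groups did not overlap with one another. MAP3K8 ran from rbPDI bESCs (8.21 CPM) and rbCAPG bESCs (7.15 CPM) through rbPDI bEECs (2.90 CPM), VC bESCs (2.54 CPM) and rbCAPG bEECs (2.29 CPM) to VC bEECs (0.497 CPM). The middle 3 groups of MAP3K8 overlapped, and each end stood apart from them. The level of MAP3K8 in treated bEECs was thus about that of bESCs with no added protein.

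The balance between the subunit genes was read as the ratio of NFKB2 to NFKB1 counts within a sample, which does not depend on the scaling between libraries. Ratios compare samples only, since they still depend on transcript length. In bESCs with VC the ratio was 1.18, 1.31 and 1.62, with rbCAPG it was 2.14, 2.19 and 1.74, and with rbPDI it was 1.67, 2.58 and 2.61. Every treated bESC sample had a higher ratio than every VC bESC sample, although the highest VC value, 1.62, was close to the lowest treated value. In bEECs the ratio was 1.05, 0.817 and 0.795 with VC, 1.15, 1.01 and 0.984 with rbCAPG and 1.11, 0.963 and 1.05 with rbPDI. The groups overlapped, but within animals the ratio was higher than with VC in 3 of 3 with each protein, by 1.10 to 1.24 times with rbCAPG and 1.06 to 1.32 times with rbPDI. All 9 bESC samples had a higher ratio than all 9 bEEC samples. By a two-sided exact permutation test on the log2 ratio, the bESC differences from VC had p = 0.1 with each protein, which is the smallest p that 3 against 3 allows, and the bEEC differences, compared without the pairing, had p = 0.3. Adjusted over the 10 tests of ratios, these were 0.2 and 0.3.

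**Figure D3:**
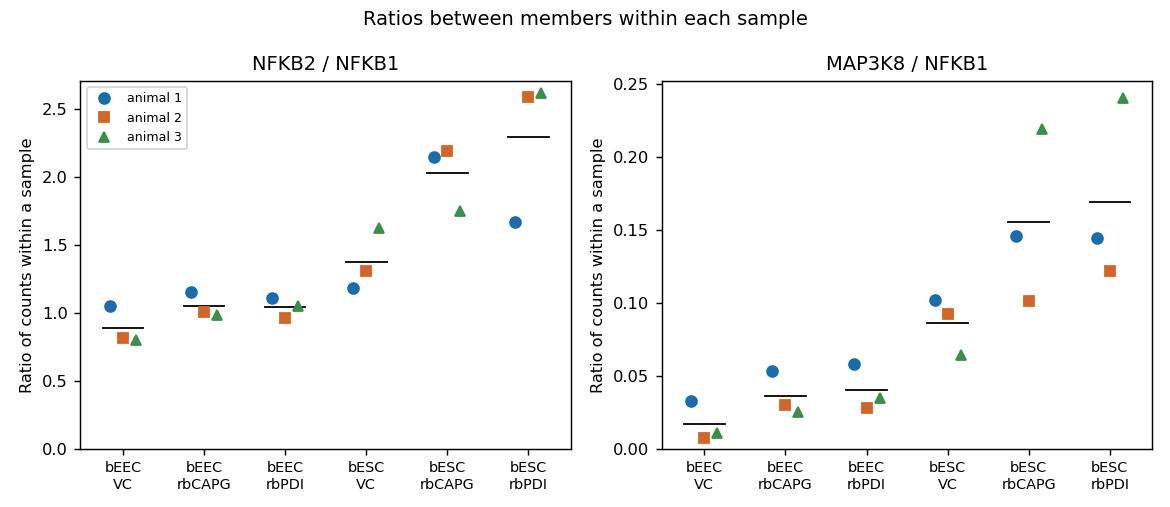
Ratio of NFKB2 to NFKB1 counts (left) and of MAP3K8 to NFKB1 counts (right) within each sample, by cell type and treatment, on linear axes from 0. Symbols mark the animal and lines the mean of 3 samples. On the left, the 9 bESC samples, from 1.18 to 2.61, lie above the 9 bEEC samples, from 0.795 to 1.15.

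MAP3K8 was read against NFKB1 in the same way, since p105 is the protein that holds its product inactive. In bEECs the ratio was 0.0324, 0.00758 and 0.0109 with VC, 0.0534, 0.0302 and 0.0252 with rbCAPG and 0.0579, 0.0280 and 0.0346 with rbPDI. It was higher than with VC in each animal with each protein, but the VC sample of replicate 1 lay above some treated samples, and the exact permutation p was 0.3 with rbCAPG and 0.2 with rbPDI. In bESCs it was 0.102, 0.0922 and 0.0643 with VC, 0.146, 0.101 and 0.219 with rbCAPG and 0.144, 0.122 and 0.240 with rbPDI, with exact permutation p of 0.2 and 0.1. The smallest adjusted p over the 10 tests was 0.2.

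Across the 18 samples, with each cell type centred on its own mean, the gene whose log2 CPM followed NFKB1 most closely among all 17930 other tested genes was NFKB2 (Pearson's r = 0.93). Of the 189 other genes with a symbol, LHFPL2 (0.91) and SLC2A6 (0.90) came next, at ranks 5 and 7 among all genes. NFKB2 was followed most closely by TNIP1 (0.94, rank 1), then by NFKB1 (rank 2) and by TNFAIP3 (0.92, rank 4). MAP3K8 had other nearest genes, CXCL8 (0.97, rank 1), CXCL2 (0.93, rank 2) and RND1 (0.92, rank 3), and NFKB2 and NFKB1 stood at ranks 45 and 88 in its order. Within a cell type, r over 9 samples between NFKB1 and NFKB2 was 0.98 in bEECs and 0.92 in bESCs, and between NFKB1 and MAP3K8 it was 0.81 and 0.73, and between NFKB2 and MAP3K8 it was 0.91 and 0.77. Spearman's rho for these pairs was 0.95 and 0.93, then 0.55 and 0.75, then 0.60 and 0.68. These values describe samples that share treatments, animals and libraries.

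The rest of the pathway was given by 23 genes, all taken from the same rbCAPG lists and so not independent evidence of direction or of calls. The 6 inhibitors and feedback regulators of NF-kB (NFKBIA, NFKBIZ, TNFAIP3, TNIP1, BIRC3 and ZC3H12A) were called higher 6 of 6 with each protein in each cell type, where 0.513% and 0.770% of all tested genes were called higher in bEECs and 0.0948% and 0.173% in bESCs with rbCAPG and rbPDI. The 5 receptors and ligand genes were called higher in 2 with rbCAPG and 3 with rbPDI in bEECs, and in 1 and 2 in bESCs. The 12 target genes were called higher in 5 and 8 in bEECs and in 6 and 7 in bESCs, and no gene of the lists was called lower. The median log2 fold change over the 23 genes was 2.70 with rbCAPG and 3.07 with rbPDI in bEECs, where the median over all genes was 0.02 and -0.01, and 1.94 and 2.30 in bESCs, where it was -0.01 and 0.

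NFKBIA, the gene of the main cytoplasmic inhibitor, was at 30.2 ± 11.6 CPM with VC, 299 ± 31.0 CPM with rbCAPG and 338 ± 58.3 CPM with rbPDI in bEECs (SD, n = 3). Its log2 fold changes by edgeR were 3.30 and 3.48 in bEECs and 1.75 and 1.81 in bESCs, in the order rbCAPG and rbPDI, against 1.13, 1.29, 0.71 and 0.69 for NFKB1. TNFAIP3, a ubiquitin-editing enzyme that ends NF-kB signalling, changed by 2.26 and 2.33 in bEECs and by 2.61 and 2.57 in bESCs. BIRC3, a ubiquitin ligase of the TNF receptor complex that also limits the non-canonical branch, changed by 2.28 and 2.70 in bEECs and by 1.79 and 1.82 in bESCs. CD40, a receptor that acts on p100 processing, changed by 2.44 and 3.07 in bEECs and by 1.69 with rbPDI in bESCs, and its value of 1.29 with rbCAPG in bESCs did not pass the test (adjusted p = 0.383). Each of these 4 genes had a larger log2 fold change than NFKB1 and NFKB2 in each comparison of bEECs with VC, a difference between genes that was not tested.

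**Figure D4:**
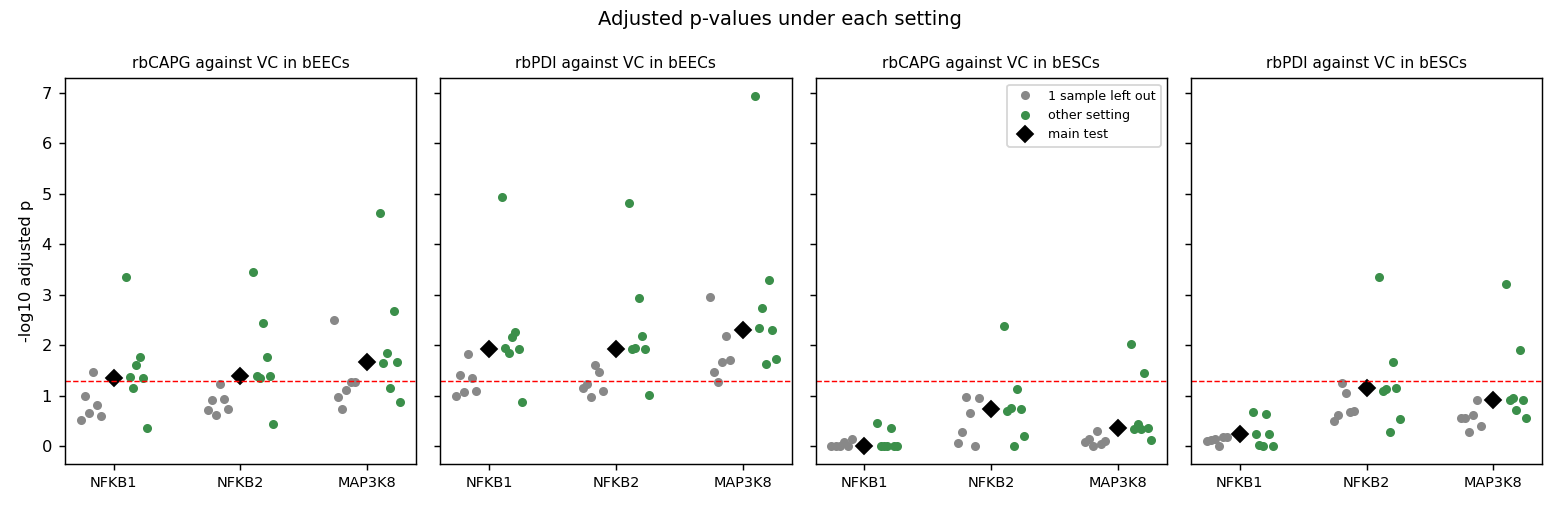
Size of -log10 adjusted p (vertical axis) for each gene against VC under the main test (diamonds), with 1 sample left out (grey) and under the other settings (green), with 1 panel for each protein and cell type. The dashed line is an adjusted p of 0.05. In bEECs most grey points with rbCAPG lie under the line. For NFKB1 they run from an adjusted p by edgeR of 0.0334, above the line, to 0.297, under it. In bESCs NFKB1 lies under the line throughout.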

How the data were processed

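RNA-seq libraries of bEECs and bESCs (6 groups, n = 3) were mapped to groups by their labels. The authors used Trimmomatic for trimming, STAR for alignment against the bovine reference and featureCounts for counting on the Ensembl annotation, dividing reads with several matches or overlapping genes into fractions. The deposited values are therefore estimated counts, not normalized, and of the 18 values 8 for NFKB1, 14 for NFKB2 and 7 for MAP3K8 were not whole. Since no strand option is given, reads of overlapping genes cannot be separated: in the RefSeq gene table of another assembly, 2 lncRNA genes overlap NFKB1, 1 overlaps NFKB2 and 0 overlap MAP3K8. That table held 0 Ensembl identifiers, so symbols came from the study's rbCAPG lists (245 identifiers, 190 with a symbol), and 16 further NF-kB genes were not analysed here.

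Counts were rounded and analysed in R 4.3.3 with edgeR 4.0.16 (filterByExpr, TMM, quasi-likelihood F-test, 6 group means fitted to 18 samples, 12 residual degrees of freedom). Benjamini-Hochberg adjustment ran over 17931 genes, and calls needed both an adjusted p under 0.05 and a log2 fold change beyond 1 in size. Standard errors were obtained by dividing the size of the log2 fold change by the square root of F. Epithelial and stromal libraries of a device came from 1 animal, and the replicate number was taken to mark it. Deviations from the group mean correlated between same-numbered samples of a cell type at a mean r of 0.481 in bEECs (lowest 0.311). In bESCs it was 0.396 (lowest 0.129). For different numbers the mean r was -0.239 and -0.199. Since each group was centred on its own mean, these negative values largely follow from the positive ones and add no further support.

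Alternatives were DESeq2 1.42.0, RLE size factors, no low-count filter, a fit to 1 cell type, the replicate block within cell type, no fold limit, each sample left out and, added after seeing the data, no TMM factors. The rule for named genes was the 3 genes, 23 pathway genes as counts with values for 4 of them, and the 3 closest genes with a symbol. The genes and lists were chosen with earlier results of these data known.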

Additional observations from a re-analysis of the deposited data

How the results depend on the processing

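No change against VC reversed its sign under any alternative. The cause of each change in the calls below was not tested, and the fits with 1 sample left out also had fewer samples. In bEECs with rbCAPG, NFKB1 was not called without the low-count filter (log2 fold change 1.09, adjusted p = 0.0703), and MAP3K8 was not called in the fit to 1 cell type (2.16, adjusted p = 0.0699). With no TMM factors, an alternative chosen after seeing the data, the calls of NFKB1 (0.97), NFKB2 (1.17) and MAP3K8 (1.89) with rbCAPG and of NFKB1 (1.23) and NFKB2 (1.44) with rbPDI were lost in bEECs. In bESCs, DESeq2 called NFKB2 (1.27 and 1.38) and MAP3K8 (1.50 and 1.70) with rbCAPG and rbPDI. Those with rbCAPG were known from the study's stromal list, which was also made with DESeq2. The replicate block called MAP3K8 with rbCAPG (1.48) and NFKB2 (1.38) and MAP3K8 (1.64) with rbPDI in bESCs, and changed no other call. With 1 sample left out, log2 fold changes in bEECs ran from 1.01 to 1.28, 1.29 to 1.46 and 1.89 to 2.95 with rbCAPG and from 1.17 to 1.41, 1.39 to 1.60 and 2.22 to 3.29 with rbPDI (NFKB1, NFKB2 and MAP3K8), and in bESCs from 0.38 to 0.88, 0.86 to 1.62 and 1.32 to 1.64 and from 0.54 to 0.84, 1.20 to 1.71 and 1.37 to 1.91. Signs reversed only for values within their error. The NFKB1 difference between cell types with VC (0.02) ran from -0.12 to 0.18 with 1 sample left out and was -0.15 with no TMM factors, and the NFKB2 interaction with rbCAPG (0.09) ran from -0.25 to 0.51 and was -0.14 with no TMM factors. With 1 sample left out, the NFKB2 interaction with rbPDI ran from -0.18 to 0.32, the NFKB1 interactions from 0.24 to 0.75 with rbCAPG and 0.45 to 0.75 with rbPDI, the MAP3K8 interactions from 0.39 to 1.45 and 0.53 to 1.61, the upper ends without VC bEEC replicate 1, and rbPDI against rbCAPG in bESCs ran from -0.19 to 0.28 for NFKB1, -0.12 to 0.50 for NFKB2 and -0.12 to 0.41 for MAP3K8. Genes called over the whole table, with rbCAPG and rbPDI in bEECs and then in bESCs, were 92, 145, 17 and 32 in the main test, 270, 381, 71 and 175 with DESeq2, 392, 531, 86 and 189 with the block, 123, 216, 30 and 54 with no filter, 152, 290, 1 and 1 in the fit to 1 cell type, 53, 102, 14 and 26 with no TMM factors, and 48 to 77, 75 to 123, 0 to 20 and 7 to 43 with 1 sample left out. MAP3K8 had the lowest counts of these genes, with 8.5 to 30.5 in VC bEECs.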
